A study of Mus musculus with 18 samples.

Results

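The collagen genes of the mouse ileum were described across 4 groups of transplanted mice. A gene was counted as a collagen gene where the single gene symbol of its probe set matched Col, digits, a, digits (such as Col1a2), and 1 probe set per gene was kept, that with the highest mean over the 18 arrays. This gave 44 collagens among the 22180 genes tested. They were split by the structure they build into 11 fibrillar collagens, 9 basement membrane collagens, 6 microfibril (type VI) collagens, 9 fibril-associated collagens and 9 others.

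Recipients were B10.BR mice, 8 to 12 weeks old at transplant, that were irradiated with 11 Gy to the whole body a day before they received marrow from C57Bl/6 donors. All 4 groups therefore share the irradiation, the strain mismatch and the donor marrow, which had been depleted of T cells. In both T cell groups the graft was supplemented with purified allogeneic T cells, so that graft-versus-host disease (GvHD), in which donor lymphocytes injure host organs, could follow. Each arm was gavaged daily, from the day before transplant to harvest on day 21, with indole-3-carboxaldehyde (ICA), an indole made from tryptophan by bacteria, at 150 mg/kg, or with its vehicle of DMSO, PEG400 and citric acid. Marrow alone was followed by vehicle in 4 mice and by ICA in 5, and marrow with T cells by vehicle in 4 and by ICA in 5. Each mouse, a biological replicate, gave 1 array of ileum RNA. Mice that received no T cells are called marrow-only mice and the others T cell mice. No group without transplant or irradiation was analysed here.

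Collagens are the main structural proteins of the extracellular matrix, and each is a triple helix of chains that are hydroxylated and folded in the endoplasmic reticulum and trimmed and crosslinked outside the cell. Types I and III form the fibrils of the submucosa and of the sheaths around the muscle layers of the gut. Type IV forms the network of basement membranes under the epithelium and around vessels and smooth muscle cells, and type VI forms beaded microfibrils close to cells. In the gut wall these genes are used mainly by fibroblasts, smooth muscle cells and endothelium, and collagen deposition is a known feature of long-lasting GvHD in several organs.

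The collagens called in any single contrast, 6 in all, were higher in T cell mice than in marrow-only mice under ICA: Col1a1, Col1a2, Col3a1, Col6a1, Col6a2 and Col12a1. Promoter windows of RefSeq (assembly GRCm38.p6) were matched by symbol for 35 of the 44 collagens, among them 4 of these 6; Col1a1 and Col12a1 are only named. The 250 bases before the start site are printed 5′ to 3′ on the gene's strand, to show what lies upstream of collagens that were called together. Capitals mark every match, on either strand, of 3 motifs. The first was the box spelled CCAAT, which is bound by general activators of many genes. Another was the core promoter box spelled TATAAA, and the last was the GC box of Sp1 factors, spelled GGGCGG. The CArG box, the element of serum response factor in smooth muscle genes, was searched as well. No match overlaps another in the windows shown. Col1a2 lies on the plus strand at chr6:4505368-4505617, Col3a1 on the plus strand at chr1:45311288-45311537, Col6a1 on the minus strand at chr10:76726045-76726294 and Col6a2 on the minus strand at chr10:76623631-76623880. RefSeq lists 2 start windows for Col6a2, and the outermost is shown.
Col1a2: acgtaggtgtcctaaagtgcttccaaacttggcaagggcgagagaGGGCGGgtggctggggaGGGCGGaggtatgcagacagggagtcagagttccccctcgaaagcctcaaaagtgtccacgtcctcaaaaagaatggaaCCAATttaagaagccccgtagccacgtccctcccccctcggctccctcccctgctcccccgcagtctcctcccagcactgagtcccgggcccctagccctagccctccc
Col3a1: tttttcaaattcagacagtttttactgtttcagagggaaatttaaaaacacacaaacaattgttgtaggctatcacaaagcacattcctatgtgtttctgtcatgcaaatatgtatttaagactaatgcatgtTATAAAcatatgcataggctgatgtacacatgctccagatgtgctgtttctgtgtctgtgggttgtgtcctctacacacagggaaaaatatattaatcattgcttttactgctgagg
Col6a1: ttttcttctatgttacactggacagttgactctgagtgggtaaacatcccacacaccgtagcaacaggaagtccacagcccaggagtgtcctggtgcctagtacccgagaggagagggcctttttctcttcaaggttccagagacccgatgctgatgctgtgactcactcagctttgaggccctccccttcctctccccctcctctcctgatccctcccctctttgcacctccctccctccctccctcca
Col6a2: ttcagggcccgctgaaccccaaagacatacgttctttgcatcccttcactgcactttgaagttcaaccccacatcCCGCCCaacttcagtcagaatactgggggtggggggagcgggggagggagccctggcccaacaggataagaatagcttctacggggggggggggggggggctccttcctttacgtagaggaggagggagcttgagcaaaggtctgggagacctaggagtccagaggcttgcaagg

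The 4 windows differed in the motifs they held. Col1a2 held 1 CCAAT, 105 bases before the start, and 2 GC boxes, 183 and 200 bases before it. Col3a1 held 1 TATAAA 112 bases before the start, while Col6a2 held 1 GC box 170 bases before the start, read on the other strand. Col6a1 held none of these motifs, and no window of the 4 held a CArG box. Among all 32851 promoter windows cut to the same length, 33.8% held CCAAT, 12.4% TATAAA, 32.7% GGGCGG and 1.47% a CArG box. Among the 38 collagen windows the shares were 34.2% (13 windows), 13.2% (5 windows), 57.9% (22 windows) and 2.63% (1 window, of Col6a4). A match describes the letters and not a site in use.

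Several collagens are neighbours on a chromosome. In RefSeq's gene order no other protein-coding gene starts between Col6a1 and Col6a2, between Col3a1 and Col5a2, between Col4a1 and Col4a2, between Col4a3 and Col4a4, between Col4a5 and Col4a6, between Col9a1 and Col19a1, or along the run of Col6a4, Col6a5 and Col6a6. Of the neighbours of called genes, Col5a2, beside Col3a1, was not called under ICA (log2 difference 0.095 ± 0.077, SE, adjusted p = 0.599), while Col6a1 and Col6a2 both were.

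The arrays were alike in scale. Medians of the 18 arrays lay between 6.47 and 6.51 on the deposited log2 scale, and pairs of arrays correlated across probe sets, which are not independent replicates, with r from 0.978 to 0.993. Fabp6, the bile acid binding protein of the ileum, had group means of 12.20 to 12.49, and the mean of 10 ileal epithelial markers lay between 11.26 and 11.73 in every mouse, so the defining genes of the labelled tissue were high throughout. Of the 44 collagens, 43 had a mean above the 25th percentile of all probe sets (5.34) and 27 had one above their median (6.48). A low mean on an array cannot be told apart from background signal, which limits what can be said of the remaining 17. Levels are compared only within a gene, since probe sets differ in how brightly they hybridise. A gene was called at a Benjamini-Hochberg adjusted p under 0.05 over all 22180 genes in a limma fit of all 18 arrays.

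Among mice given ICA, a set of fibril and microfibril collagens was higher with donor T cells. In this contrast 6 of 44 collagens were called, beside 3.12% of all genes. All 6 were higher, beside 1.05% of all genes, and 0 were lower, beside 2.07%. They comprised the 3 main fibrillar chains Col1a1, Col1a2 and Col3a1, 2 chains of type VI (Col6a1 and Col6a2) and Col12a1, which coats collagen I fibrils. Log2 differences ran from 0.35 for Col3a1 to 0.62 for Col12a1, which is 1.28-fold to 1.54-fold. Of all 44 collagens, 32 lay above 0, with a median of 0.060, where 47.6% of all genes lay above 0 and their median was -0.0086. Smooth muscle markers were higher in the same mice, 8 of 10 called, with a list mean of 10.16 to 10.56 in T cell mice given ICA and 9.80 to 10.05 in marrow-only mice given ICA. Their part in the collagen difference was not tested, and in bulk RNA more cells of a type and more RNA per cell cannot be told apart.

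**Figure D1:**
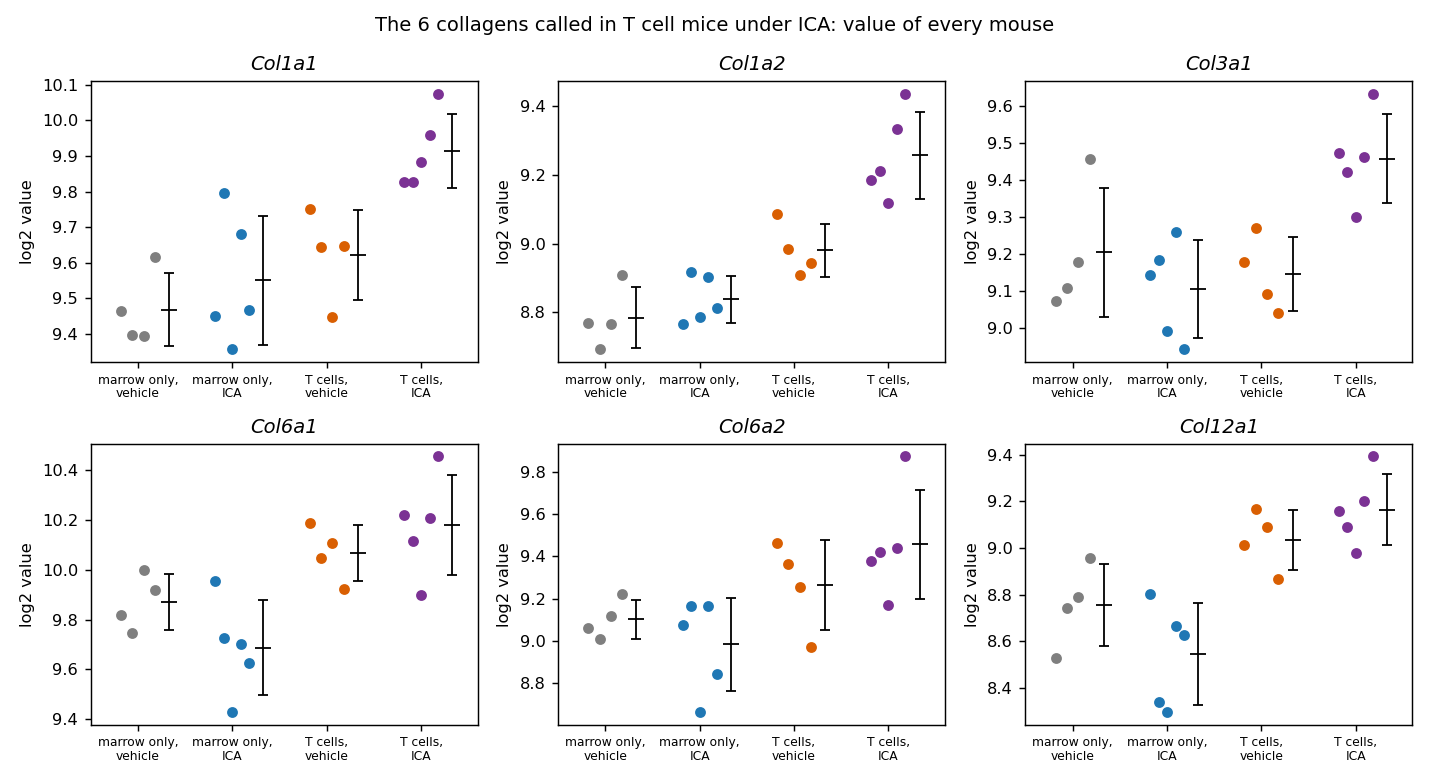
Log2 value of each of the 6 collagens called in T cell mice against marrow-only mice under ICA, with 1 point per mouse in each of the 4 groups (4, 5, 4 and 5 mice), the bar beside the points giving mean ± SD; each panel has its own log2 axis, which does not start at 0. The 5 T cell mice given ICA lie above all 5 marrow-only mice given ICA in every panel but that of Col6a1, where the groups overlap.

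Type I collagen is made from the products of Col1a1 and Col1a2, and both were higher. Col1a1 read 9.83, 9.83, 9.88, 9.96 and 10.07 in the 5 T cell mice given ICA and 9.45, 9.79, 9.36, 9.68 and 9.47 in the 5 marrow-only mice given ICA. Every T cell mouse thus read above every marrow-only mouse, the closest being 9.83 against 9.79, and the difference was 0.36 ± 0.08 (SE, 95% interval 0.19 to 0.54, 1.29-fold, adjusted p = 0.0200). For Col1a2 the T cell mice read 9.19, 9.21, 9.12, 9.33 and 9.44 and the marrow-only mice 8.77, 8.92, 8.79, 8.90 and 8.81. These groups were also separate, with 9.12 and 8.92 as their closest members, and the difference was 0.42 ± 0.07 (95% interval 0.28 to 0.56, 1.34-fold, adjusted p = 0.00143).

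Type III collagen, encoded by Col3a1 alone, is laid down with type I in distensible tissue. Col3a1 read 9.47, 9.42, 9.30, 9.46 and 9.63 in T cell mice given ICA and 9.14, 9.18, 8.99, 9.26 and 8.94 in marrow-only mice given ICA. The groups did not overlap, with 9.30 the lowest T cell mouse and 9.26 the highest marrow-only mouse, and the difference was 0.35 ± 0.08 (95% interval 0.18 to 0.53, 1.28-fold, adjusted p = 0.0242).

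Type VI chains alpha 1 and alpha 2, from Col6a1 and Col6a2, assemble with a further chain into the microfibril. Col6a1 read 10.22, 10.12, 9.90, 10.21 and 10.46 in T cell mice given ICA and 9.96, 9.73, 9.43, 9.70 and 9.62 in marrow-only mice given ICA. One T cell mouse, at 9.90, read below the highest marrow-only mouse, at 9.96, and the difference was 0.49 ± 0.10 (95% interval 0.29 to 0.70, 1.41-fold, adjusted p = 0.00674). Col6a2 read 9.38, 9.42, 9.17, 9.44 and 9.88 against 9.08, 9.17, 8.66, 9.16 and 8.84. Its groups met at 9.17 without crossing, with values as high as 9.88 in the T cell mice and as low as 8.66 in the marrow-only mice, and the difference was 0.48 ± 0.12 (95% interval 0.22 to 0.73, 1.39-fold, adjusted p = 0.0341).

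Col12a1 showed the largest difference of the 44 collagens. Its values were 9.16, 9.09, 8.98, 9.20 and 9.39 in T cell mice given ICA and 8.80, 8.34, 8.30, 8.67 and 8.63 in marrow-only mice given ICA. The groups were separate, 8.98 against 8.80 at the closest, and the difference was 0.62 ± 0.10 (95% interval 0.40 to 0.84, 1.54-fold, adjusted p = 0.00167). In all, 5 collagens had T cell values that lay wholly above the marrow-only values under ICA, beside 1.16% of all genes, and 0 had values wholly below, beside 2.17%.

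Among these 6, Col1a2, Col6a1 and Col12a1 were still called when any 1 of the 18 mice was left out. Col1a1 and Col3a1 lost the call without marrow-only ICA mouse 3 or 5 or without T cell ICA mouse 5, with adjusted p up to 0.0647 and 0.0827. Col6a2 lost it without any of those mice or without T cell ICA mouse 2 or 4, with adjusted p up to 0.102. A fit of only the 10 mice compared called 3 collagens and lost Col1a1, Col3a1 and Col6a2. How many of all genes these fits called is not given here.

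**Figure D2:**
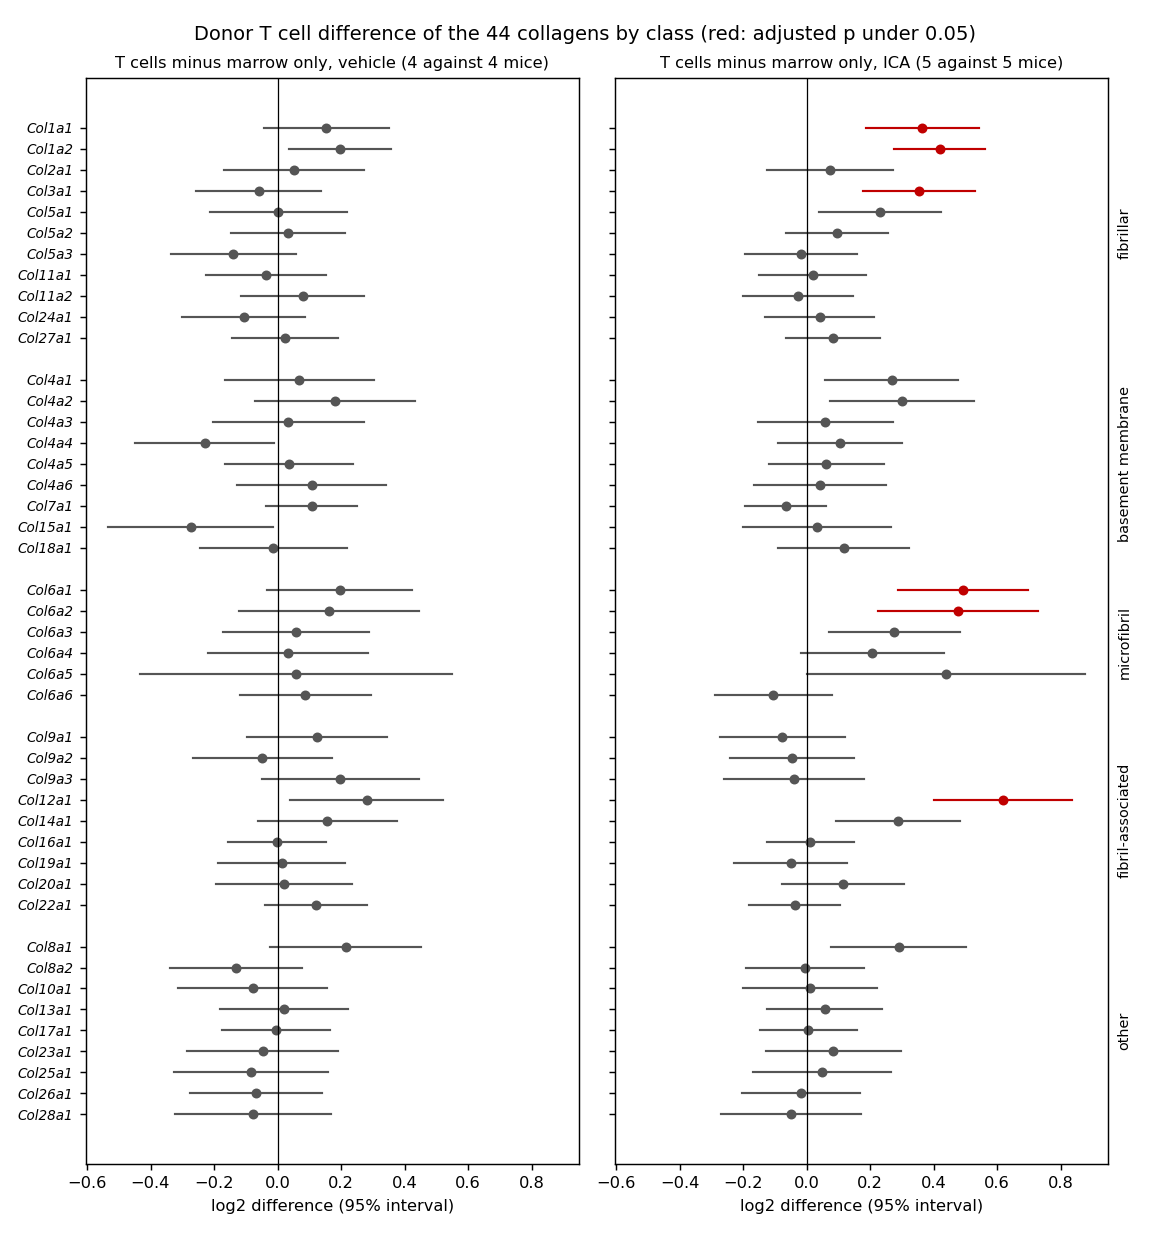
Log2 difference of T cell mice minus marrow-only mice for all 44 collagens by class, under vehicle (left, 4 against 4 mice) and under ICA (right, 5 against 5 mice), each point with its 95% interval; both panels share 1 scale and red marks an adjusted p under 0.05. Red points appear in the right panel alone, where 6 collagens are called, and the widest interval is that of Col6a5.

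Under vehicle the same contrast called no collagen. In T cell mice against marrow-only mice given vehicle, 0 of 44 collagens passed in limma, beside 1.47% of all genes (0.794% higher, 0.681% lower). An unadjusted p under 0.05 was found for 2885 of the 22180 genes and for 4 of the 44 collagens. These were Col1a2 (0.20 ± 0.08, adjusted p = 0.247) and Col12a1 (0.28 ± 0.12, adjusted p = 0.283) with positive values, and Col15a1 (-0.27 ± 0.12, adjusted p = 0.350) and Col4a4 (-0.23 ± 0.11, adjusted p = 0.353) with negative ones. The median over the 44 collagens was 0.033, with 28 above 0, where the median of all genes was 0.0076 and 51.9% of them lay above 0. Wholly separate groups were seen for 2 collagens, Col1a2 and Col22a1, both higher, beside 6.33% of all genes, and for 0 lower, beside 4.21%.

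The mouse values under vehicle show how far the arms lay apart there. Col1a2 read 9.09, 8.99, 8.91 and 8.94 in T cell mice given vehicle and 8.77, 8.69, 8.77 and 8.91 in marrow-only mice given vehicle, with the arms just separate. Col12a1 read 9.01, 9.17, 9.09 and 8.87 against 8.53, 8.74, 8.79 and 8.96, so that 1 marrow-only mouse lay above the lowest T cell mouse. Col3a1 read 9.18, 9.27, 9.09 and 9.04 against 9.07, 9.11, 9.18 and 9.46, so that the arms overlapped (-0.059 ± 0.094, adjusted p = 0.866). Col1a1 differed by 0.15 ± 0.09, Col6a1 by 0.20 ± 0.11 and Col6a2 by 0.16 ± 0.14, none of them called. The groups of this contrast held 4 mice each, against 5 each under ICA.

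The contrast under ICA and that under vehicle were set against each other by the interaction, which is the test of whether the T cell difference depends on ICA. It called 0 of 44 collagens and 0 genes of any kind in limma at an adjusted p under 0.05. An unadjusted p under 0.05 was found for 1482 of the 22180 genes and for 4 collagens. These were Col3a1 (0.41 ± 0.13, 95% interval 0.15 to 0.68, adjusted p = 0.677), Col4a4 (0.33 ± 0.14, adjusted p = 0.724), Col12a1 (0.34 ± 0.16, adjusted p = 0.742) and Col1a2 (0.22 ± 0.10, adjusted p = 0.742). The 6 collagens called under ICA are therefore not shown to respond differently from vehicle. Positive interaction values were found for 36 of 44 collagens, with a median of 0.091, where 44.8% of all genes were positive and their median was -0.022.

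Averaged over vehicle and ICA, the T cell difference called 6 of 44 collagens, beside 7.21% of all genes, all 6 higher, beside 3.58%, and 0 lower, beside 3.62%. Of the 6, 5 were those called under ICA other than Col3a1, and the other was Col8a1, a short-chain collagen of vessel walls and mesenchyme. The averages were 0.31 ± 0.05 for Col1a2 (adjusted p = 0.000840), 0.45 ± 0.08 for Col12a1 (0.00111), 0.34 ± 0.07 for Col6a1 (0.00571), 0.26 ± 0.06 for Col1a1 (0.0154), 0.32 ± 0.09 for Col6a2 (0.0366) and 0.25 ± 0.08 for Col8a1 (0.0496). Col3a1, at 0.15 ± 0.06, did not pass (adjusted p = 0.190). In the same contrast 9 of 10 smooth muscle markers were called higher. With the smooth muscle mean as covariate 0 of 44 collagens were called, and the average of Col6a2 was then -0.063 ± 0.11 (adjusted p = 0.927). These values reuse the mice of both single contrasts and are not further evidence beside them.

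Col8a1 lost its call most often of these 6. With T cells it read 6.70, 7.03, 7.11, 7.12 and 7.18 under ICA and 6.76, 6.70, 6.86 and 7.08 under vehicle. Without T cells it read 6.73, 7.01, 6.63, 6.79 and 6.54 under ICA and 6.59, 6.57, 6.75 and 6.62 under vehicle. The arms overlapped under both treatments, and the call held in 4 of the 18 fits that left out a mouse, with adjusted p up to 0.116. Col6a2 held its averaged call in 7 of 18 such fits, with adjusted p up to 0.0805. Col1a1, Col1a2, Col6a1 and Col12a1 held theirs in all 18.

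Of the 11 fibrillar collagens, the 3 main chains described above were called under ICA and the minor ones were not. The class median of the T cell difference was 0.083 under ICA and 0.023 under vehicle, with 9 and 7 of 11 members above 0. Col5a1, whose chain nucleates type I fibrils, had the next largest difference under ICA (0.23 ± 0.09, adjusted p = 0.198). Its mice read 8.28, 8.12, 8.04, 8.25 and 8.42 with T cells and 8.01, 8.17, 7.84, 8.00 and 7.93 without, so that the arms overlapped. Col5a3 had the largest negative value of the class under vehicle (-0.14 ± 0.09, adjusted p = 0.599). The 6 other fibrillar members (Col2a1, Col5a2, Col11a1, Col11a2, Col24a1 and Col27a1) had no adjusted p under 0.5 in either contrast.

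Type VI had the highest of the 5 class medians under ICA, 0.36, and a median of 0.073 under vehicle. Of its 6 members, 5 lay above 0 under ICA and all 6 under vehicle. Col6a3, the long alpha 3 chain of the classical microfibril, read 8.86, 8.73, 8.74, 8.97 and 9.06 in T cell mice given ICA and 8.75, 8.67, 8.28, 8.74 and 8.54 in marrow-only mice given ICA. The arms overlapped, and the difference of 0.28 ± 0.10 was not called (adjusted p = 0.147). Col6a4, Col6a5 and Col6a6 are chains that can take the place of Col6a3, and they went separate ways: Col6a4 had 0.21 ± 0.11 (adjusted p = 0.354), Col6a5 0.44 ± 0.21 (adjusted p = 0.300) and Col6a6 -0.11 ± 0.09 (adjusted p = 0.617).

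Col6a5 varied most of all collagens between mice of 1 group. It read 7.22, 6.29, 7.15, 7.35 and 7.54 in T cell mice given ICA and 7.12, 6.31, 6.20, 7.07 and 6.65 in marrow-only mice given ICA. The groups overlapped over most of their range, and the within-group SD was 0.39, against 0.053 for Col7a1, the smallest of the family.

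The basement membrane class had no called member in any of the 6 comparisons. Its median T cell difference was 0.062 under ICA, with 8 of 9 members above 0, and 0.036 under vehicle, with 6 of 9 above 0. Col4a1 and Col4a2, the chains of the common type IV network, had the highest values under ICA, 0.27 ± 0.10 (adjusted p = 0.169) and 0.30 ± 0.11 (adjusted p = 0.147). Col4a1 read 8.03, 8.17, 8.04, 8.30 and 8.56 in T cell mice given ICA and 7.96, 8.15, 7.90, 8.03 and 7.73 in marrow-only mice given ICA. Col4a2 read 7.76, 7.98, 7.93, 8.24 and 8.19 against 7.79, 7.72, 7.70, 7.82 and 7.58. In both genes T cell ICA mice 4 and 5 read highest and the other T cell mice lay near or among the marrow-only mice. The remaining type IV chains, Col4a3 to Col4a6, are those of specialised basement membranes, and under ICA their differences ran from 0.042 to 0.11.

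Col15a1 and Col18a1 are proteoglycan collagens that link basement membranes to the tissue below. Under vehicle Col15a1 had the lowest T cell difference of all 44 collagens, -0.27 ± 0.12, and under ICA it was 0.032 ± 0.11, neither called. It read 6.99, 6.49, 6.69 and 6.75 in T cell mice given vehicle and 7.05, 6.71, 7.15 and 7.09 in marrow-only mice given vehicle, with overlap through the mice at 6.99 and 6.71. Col18a1 differed by 0.12 ± 0.10 under ICA (adjusted p = 0.627).

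Fibril-associated collagens sit on the surface of fibrils, and Col12a1 was the 1 member called. The class median under ICA was -0.038, with 4 of 9 members above 0, and 0.12 under vehicle, with 7 of 9 above 0. Col14a1, the nearest relative of Col12a1, had the next highest value under ICA, 0.29 ± 0.09 (adjusted p = 0.109). Its mice read 7.98, 7.94, 8.29, 8.18 and 8.08 with T cells and 8.07, 7.74, 7.59, 7.91 and 7.72 without, and 1 marrow-only mouse lay among the T cell mice. Without marrow-only ICA mouse 1, the mouse at 8.07, Col14a1 was called. The cartilage collagens Col9a1, Col9a2 and Col9a3 had values of -0.076, -0.045 and -0.040 under ICA.

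In the last class, of 9 collagens with other structures, the median T cell difference was 0.0099 under ICA and -0.068 under vehicle. Col8a1 had the highest value in both contrasts, 0.29 ± 0.10 (adjusted p = 0.138) and 0.21 ± 0.11 (adjusted p = 0.448). Its partner chain Col8a2 had -0.0043 ± 0.089 and -0.13 ± 0.10. Transmembrane and epithelial members such as Col13a1, Col17a1, Col23a1 and Col25a1 differed by at most 0.084 under ICA.

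**Figure D3:**
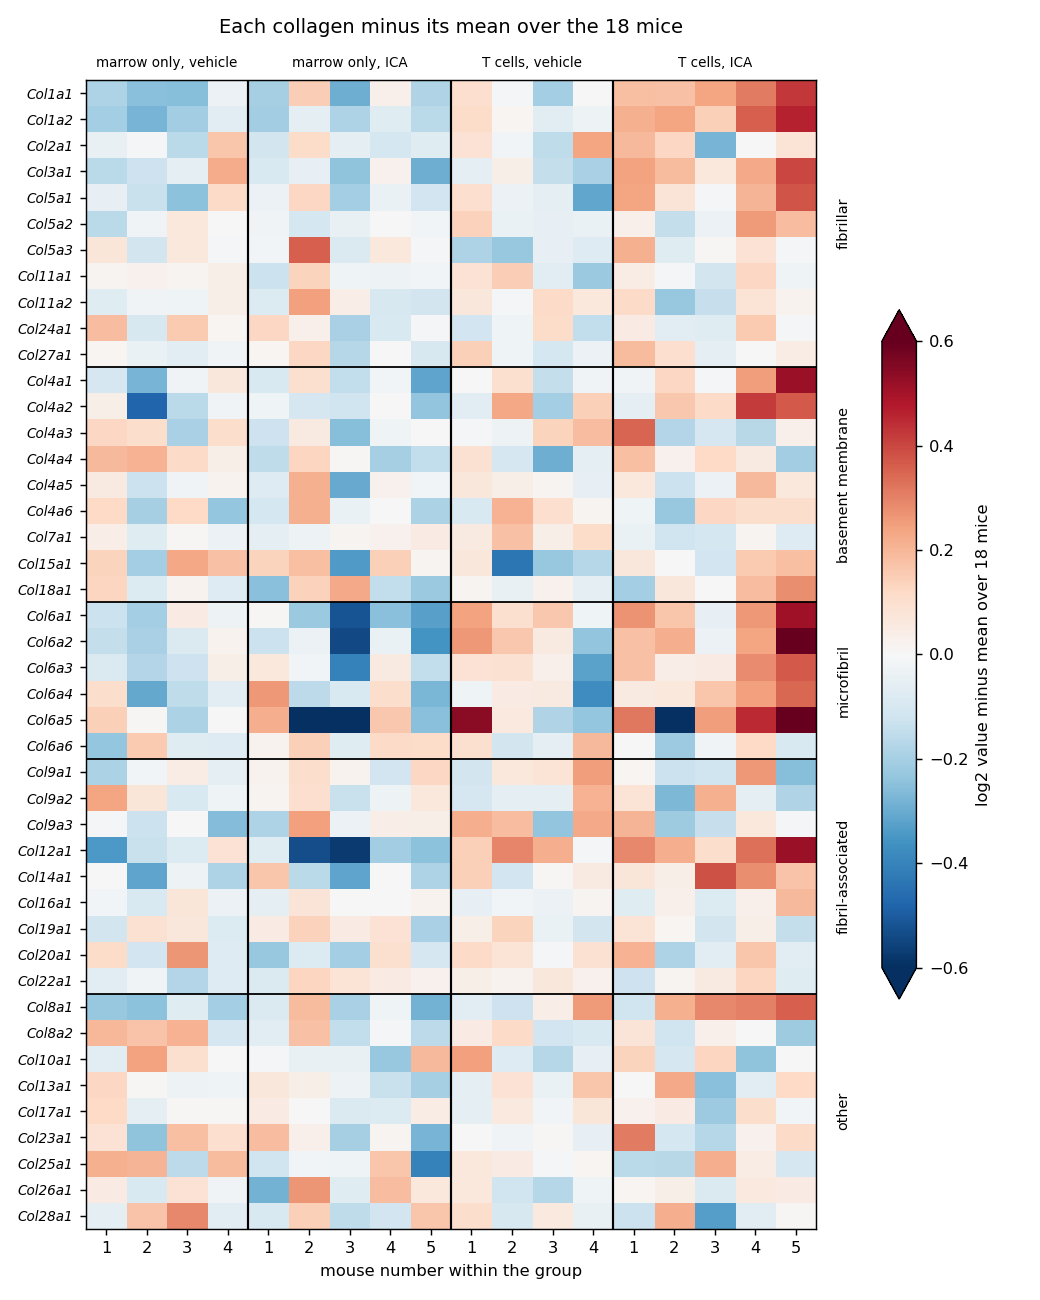
Each collagen's log2 value in a mouse minus its mean over the 18 mice, with collagens in rows by class and mice in columns by group; red is above and blue below the gene's own mean, and the colour scale ends at 0.6 in both directions. T cell ICA mice 4 and 5 are red for most collagens of the upper classes, while marrow-only ICA mouse 3 is mostly blue.

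The higher values in T cell mice given ICA were not even over the mice. Of the 27 collagens with a mean above the median probe set, the count above the gene's own mean over the 18 mice was 24 in T cell ICA mouse 4 and 23 in mouse 5, then 20, 19 and 12 in mice 1, 2 and 3. In T cell mice given vehicle it was 19, 13, 10 and 9. Marrow-only mice reached at most 14 and had as few as 2 (ICA mouse 3) and 3 (vehicle mouse 2). Thus 4 of 5 T cell mice given ICA and 1 of 4 given vehicle exceeded 14, the highest count of a marrow-only mouse. The 27 collagens include the 6 called under ICA, so these counts are not further evidence beside the calls.

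ICA was then compared with vehicle within each arm. Among T cell mice no collagen was called, 0 of 44 beside 0.0135% of all genes (3 genes, all lower) in the limma fit. There an unadjusted p under 0.05 was found for 1529 of the 22180 genes and for 7 collagens. The largest values belonged to the fibrillar chains Col3a1 (0.31 ± 0.09, 95% interval 0.13 to 0.50, adjusted p = 0.373), Col1a1 (0.29 ± 0.09, 0.11 to 0.48, adjusted p = 0.450) and Col1a2 (0.28 ± 0.07, 0.12 to 0.43, adjusted p = 0.339). In these 3 genes every T cell mouse given ICA read above every T cell mouse given vehicle, beside 1.11% of all genes. Col3a1 spanned 9.30 to 9.63 with ICA and 9.04 to 9.27 with vehicle, Col1a1 spanned 9.83 to 10.07 and 9.45 to 9.75, and Col1a2 spanned 9.12 to 9.44 and 8.91 to 9.09.

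Col5a1 (0.25 ± 0.10, adjusted p = 0.595), Col6a4 (0.25 ± 0.11, adjusted p = 0.705) and Col15a1 (0.25 ± 0.12, adjusted p = 0.725) had the next values among T cell mice. Col6a1, Col6a2 and Col12a1 differed less between ICA and vehicle, by 0.11 ± 0.11, 0.19 ± 0.13 and 0.13 ± 0.11. For Col6a1 this depended on the probe set, since a second one gave 0.32 ± 0.15. The median over the 44 collagens was 0.053, with 26 above 0, where the median of all genes was -0.010 and 46.6% lay above 0. By class the median was 0.062 for fibrillar, 0.18 for microfibril, 0.082 for basement membrane, -0.036 for fibril-associated and -0.025 for other collagens.

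Col7a1, which forms the anchoring fibrils of stratified epithelia, had the lowest value of the family in this contrast. It read 6.52, 6.43, 6.45, 6.57 and 6.48 in T cell mice given ICA and 6.61, 6.73, 6.59 and 6.66 in T cell mice given vehicle. The groups were separate, beside 1.78% of all genes with values wholly lower, and the difference of -0.16 ± 0.07 was not called (adjusted p = 0.649). Marrow-only mice spanned 6.48 to 6.60 over both treatments, between the T cell groups and overlapping each.

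Among marrow-only mice ICA called 0 of 44 collagens, beside 0.00451% of all genes (1 gene). In limma an unadjusted p under 0.05 was found for 1669 of the 22180 genes and 1 collagen, Col4a4 (-0.21 ± 0.10, adjusted p = 0.661). Col12a1 (-0.21 ± 0.11, adjusted p = 0.682) and Col6a1 (-0.18 ± 0.10, adjusted p = 0.696) had negative values, and Col1a1, Col1a2 and Col3a1 had 0.082 ± 0.090, 0.053 ± 0.073 and -0.10 ± 0.09. In this arm 0 collagens had wholly separate groups, beside 1.35% of all genes higher and 0.825% lower. The median over the 44 collagens was -0.011, with 19 above 0, where the median of all genes was 0.012.

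The remaining collagens with low p-values in their class were all short of a call. With T cells under vehicle, Col9a3 had 0.20 ± 0.12 (adjusted p = 0.526), Col22a1, a fibril-associated collagen of tissue junctions, 0.12 ± 0.08 (adjusted p = 0.563), and Col7a1 0.11 ± 0.07 (adjusted p = 0.563). For ICA among marrow-only mice, Col6a5 had -0.22 ± 0.22 (adjusted p = 0.838), Col25a1 -0.19 ± 0.11 (adjusted p = 0.703), Col8a2 -0.16 ± 0.09 (adjusted p = 0.705), Col20a1 -0.15 ± 0.10 (adjusted p = 0.736), Col22a1 0.12 ± 0.07 (adjusted p = 0.705) and Col6a6 0.12 ± 0.09 (adjusted p = 0.781). The intervals of all of these cross 0.

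The genes that make, trim, bind and break down collagen were read from lists of general knowledge. Of 18 measured enzymes and chaperones of collagen synthesis, 0 were called under vehicle or ICA, beside 1.47% and 3.12% of all genes. Serpinh1, the chaperone of the procollagen helix, had the largest difference of this list in T cell mice given ICA against vehicle, 0.26 ± 0.11 (adjusted p = 0.646). Sec24d, a coat protein of the vesicles that export procollagen, was lower in the averaged T cell contrast, by -0.22 ± 0.06 (adjusted p = 0.0302). It was the 1 member called, beside 3.62% of all genes lower. Of 11 genes of procollagen trimming and crosslinking 0 were called in any comparison, beside at most 7.21% of all genes, in the averaged contrast. Lox, the crosslinking oxidase, had 0.41 ± 0.19 under vehicle (adjusted p = 0.352).

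Among genes of collagen breakdown and its inhibitors, metalloproteinase inhibitors made up most of the calls. Of 14 members, 1 was higher with T cells under vehicle, beside 0.794% of all genes, and 3 under ICA, beside 1.05%. In both contrasts 0 were lower, and the averaged contrast called 5 higher, beside 3.58%. Timp3, an inhibitor of metalloproteinases that is held in the matrix, was called in both arms (0.44 ± 0.10, adjusted p = 0.0386, and 0.38 ± 0.09, adjusted p = 0.0278). Mmp2, a gelatinase of stromal cells, read 10.62, 10.48, 10.66, 10.68 and 10.81 in T cell mice given ICA and 10.40, 10.25, 9.93, 10.12 and 10.04 in marrow-only mice given ICA. Its groups were separate, and the difference was 0.50 ± 0.10 (adjusted p = 0.00674). Reck, a membrane inhibitor of metalloproteinases, rose by 0.29 ± 0.07 (adjusted p = 0.0304). Among the 5 called in the averaged contrast were Timp1 (0.64 ± 0.17, adjusted p = 0.0224), Timp2 (0.23 ± 0.06, adjusted p = 0.0195) and Ctsk, the collagen-cleaving cathepsin (0.24 ± 0.07, adjusted p = 0.0444).

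Of 9 collagen receptors, Itga1, the alpha chain of a collagen-binding integrin, was higher under ICA (0.43 ± 0.08, adjusted p = 0.00476), beside 1.05% of all genes. This integrin chain is found on activated T cells as well as on smooth muscle. The averaged contrast called it with Adgrg1, an adhesion receptor for type III collagen (0.28 ± 0.07, adjusted p = 0.0133), beside 3.58% of all genes higher. Of 15 partners of type IV collagen in the basement membrane, Lamc1, a laminin chain, was the 1 member called under ICA (0.28 ± 0.07, adjusted p = 0.0292), beside the same 1.05%. All 15 lay above 0 there, with a median of 0.23, beside 47.6% of all genes. The averaged contrast added Nid1, which links laminin to type IV collagen (0.29 ± 0.08, adjusted p = 0.0379), beside the same 3.58%.

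Several proteins that bind collagen fibrils were called as well. Of 17 members, 4 were called higher under ICA, beside 1.05% of all genes, and 0 lower, beside 2.07%. All 17 lay above 0, with a median of 0.25, where 47.6% of all genes lay above 0. Fn1, fibronectin, on which fibrils are laid down, read 11.01, 11.44, 10.99, 11.30 and 11.56 in T cell mice given ICA and 10.62, 10.56, 10.28, 10.62 and 10.44 in marrow-only mice given ICA. Its arms were separate under ICA (0.76 ± 0.11, adjusted p = 0.000478) and under vehicle (0.60 ± 0.12, adjusted p = 0.0129), where it was the 1 member called, beside 0.794% of all genes higher. Under ICA the others called were Postn, which promotes crosslinking (0.43 ± 0.11, adjusted p = 0.0280), Thbs2 (0.42 ± 0.09, adjusted p = 0.0160) and Eln, elastin (0.38 ± 0.08, adjusted p = 0.00714).

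In the TGF-beta pathway, which drives collagen transcription in fibroblasts, members moved both ways. Tgfbr2, a receptor chain, was called higher under vehicle (0.33 ± 0.08, adjusted p = 0.0480), beside 0.794% of all genes. Under ICA Tgfbi, a matrix protein that TGF-beta induces, was higher (0.37 ± 0.10, adjusted p = 0.0470), beside 1.05% of all genes. Smad4, the shared transducer, was lower there (-0.47 ± 0.10, adjusted p = 0.00803), beside 2.07%, the others of 18 not being called. The averaged contrast called 2 of the 18 higher, beside 3.58% of all genes, and 2 lower, beside 3.62%. For Tgfbr2 the call held in 4 of 18 fits without a mouse and for Tgfbi in 3 of 18. The comparisons of ICA with vehicle called 0 members of any of these 7 lists.

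Short of a call under vehicle, Lair1, an inhibitory collagen receptor of leukocytes, had 0.59 ± 0.15 (adjusted p = 0.0572) and Mmp8, the neutrophil collagenase, 0.76 ± 0.23 (adjusted p = 0.106). With T cells, ICA against vehicle gave -0.66 ± 0.22 for Mmp8 (adjusted p = 0.517), 0.32 ± 0.09 for Pxdn, which crosslinks type IV collagen (adjusted p = 0.375), and 0.24 ± 0.07 for Lamc1 (adjusted p = 0.437). Under ICA the T cell calls of Mmp2, Itga1, Fn1, Thbs2, Eln and Smad4 held in all 18 fits without a mouse, those of Timp3, Reck and Lamc1 in 12 and that of Postn in 13. None of these related genes was called under ICA with the smooth muscle mean as covariate.

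Markers of the cell types in the gut wall were read beside the collagens. Of 10 smooth muscle markers, 8 were called higher in T cell mice under ICA, beside 1.05% of all genes, and all 10 lay above 0 (median 0.43), beside 47.6% of all genes. Under vehicle 0 were called higher in the limma fit, beside 0.794% of all genes. An unadjusted p under 0.05 was reached by 6 of the 10 markers, beside 2885 of the 22180 genes. All 10 lay above 0 there (median 0.27), beside 51.9%. The averaged contrast called 9 of 10 higher, beside 3.58%. Under vehicle the mean of the list ran from 10.12 to 10.39 in T cell mice and from 9.84 to 10.04 in marrow-only mice, so that the arms were separate there as they were under ICA.

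The 10 measured fibroblast markers went both ways. Under ICA Pi16 was higher (0.55 ± 0.15, adjusted p = 0.0466) and Fbln1 lower (-0.46 ± 0.09, adjusted p = 0.00861), beside 1.05% of all genes higher and 2.07% lower. Of the 10, 9 lay above 0, and the list mean ran from 7.94 to 8.20 in T cell mice and 7.78 to 8.05 in marrow-only mice, with overlap. Of endothelial markers, 2 of 10 (Cdh5 and Vwf) and, of pericyte markers, 1 of 6 (Mcam) were called higher under ICA, beside the same 1.05% of all genes. Of the other lists of the wall none had a call under ICA, beside 3.12% of all genes in either direction. These were 0 of 5 enteric glia markers, 0 of 6 mesothelial markers and 0 of 10 ileal epithelial markers. In the averaged contrast 1 of the 10 epithelial markers was called lower, beside 3.62% of all genes. T cell markers Cd8a and Cd8b1 were higher with donor T cells under ICA, by 1.98 ± 0.22 and 2.06 ± 0.18. Of the 7 measured T cell markers these 2 were called higher there, beside 1.05% of all genes, and Cd4 was called lower (-0.71), beside 2.07%. There the mean of the 7 ran from 7.63 to 8.41 in T cell mice and 6.76 to 7.70 in marrow-only mice, with overlap. With vehicle it ran from 7.68 to 8.64 in T cell mice and 6.61 to 7.19 in marrow-only mice, without overlap. Under vehicle 4 of the 7 were called higher, beside 0.794% of all genes, and in the averaged contrast 6, beside 3.58%. Of 8 macrophage markers, Csf1r and Mrc1 were called higher under ICA, beside the same 1.05%. Under vehicle 4 of the 8 macrophage markers were called higher, and in the averaged contrast 7, beside the same shares.

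**Figure D4:**
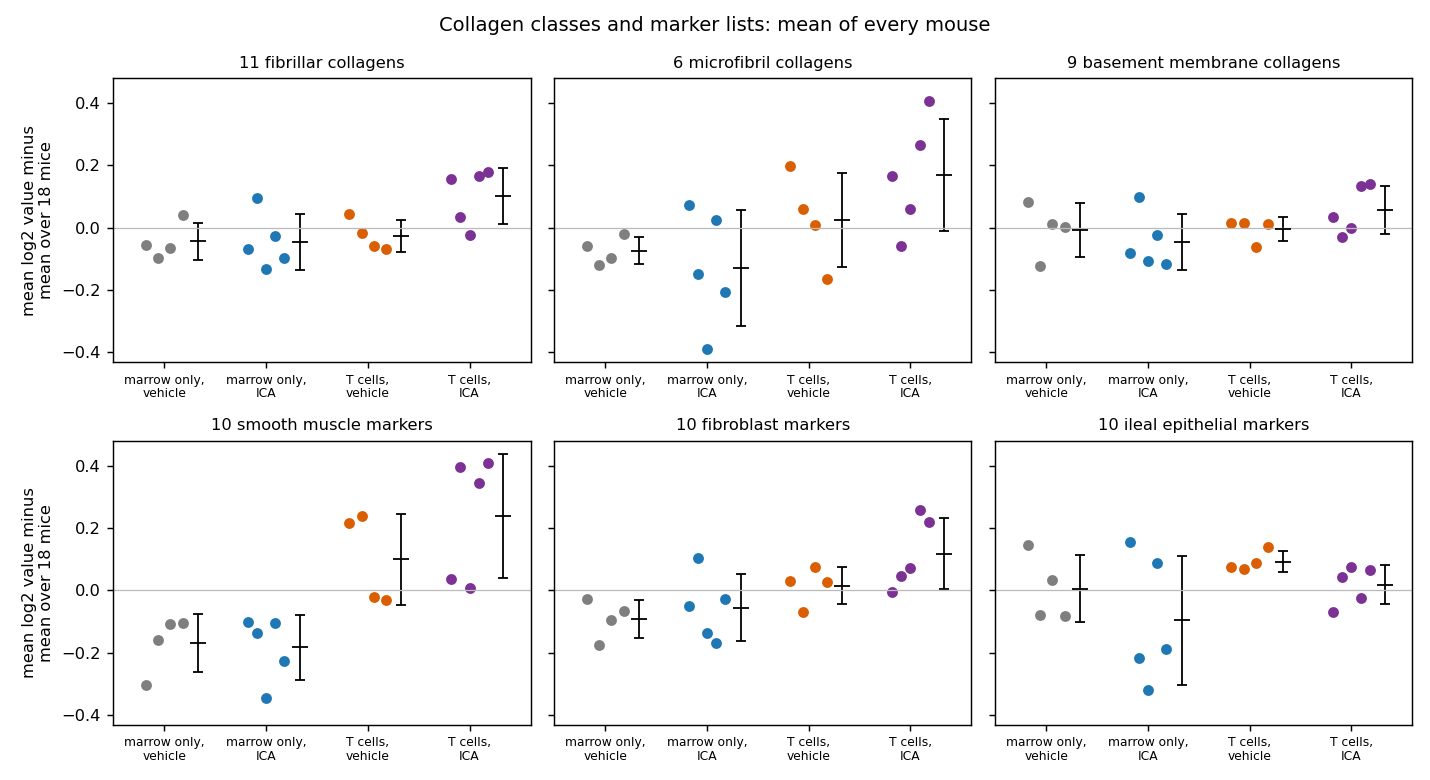
Mean log2 value of a mouse over 3 collagen classes (top) and 3 marker lists (bottom), minus the list's mean over the 18 mice, with 1 point per mouse in the 4 groups and mean ± SD beside the points; all panels share 1 scale. Smooth muscle markers separate T cell from marrow-only mice under both treatments, while the collagen classes overlap between groups.

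With the smooth muscle mean of each mouse as a covariate, 0 of 44 collagens were called under ICA and the difference of Col6a2 was 0.0095 ± 0.14, that of Col3a1 0.10 ± 0.12, Col1a1 0.18 ± 0.13, Col6a1 0.19 ± 0.13, Col1a2 0.24 ± 0.10 and Col12a1 0.32 ± 0.14. Over all genes that fit called 10, down from 693. The covariate itself separated the arms, so that smooth muscle level and donor T cells cannot be told apart in these mice. With the fibroblast mean as covariate, an alternative chosen after the data were seen, Col1a2 (0.33 ± 0.08, adjusted p = 0.04996) and Col12a1 (0.62 ± 0.14, adjusted p = 0.0263) were called, while the calls of the other 4 were lost: Col3a1 had 0.33 ± 0.11 (adjusted p = 0.143), Col1a1 0.25 ± 0.10 (adjusted p = 0.228), Col6a1 0.37 ± 0.12 (adjusted p = 0.128) and Col6a2 0.34 ± 0.15 (adjusted p = 0.276). Without the 3 arrays that stood apart in an earlier analysis (vehicle mouse 3 and ICA mouse 1 without T cells, and ICA mouse 1 with them), 8 collagens were called under ICA, with Col14a1 and Col8a1 added to the 6. The part of these cell types in the collagen differences was not tested.

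**Figure D5:**
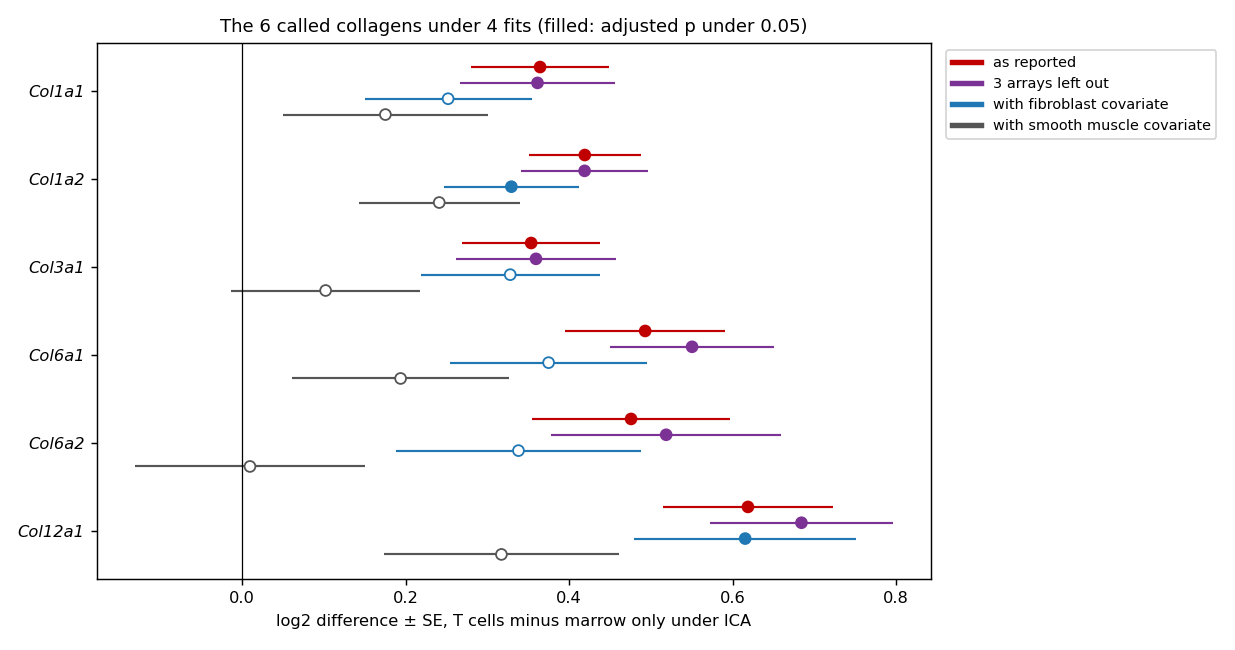
Log2 difference ± SE of T cell mice minus marrow-only mice under ICA for the 6 called collagens, as reported, without 3 arrays, with the fibroblast marker mean and with the smooth muscle marker mean as covariate; filled points have an adjusted p under 0.05. The smooth muscle covariate gives the lowest value for all 6, down to 0.0095 for Col6a2.

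A further probe set with a single symbol was present for 3 collagens. The second probe set of Col6a1 differed by 0.68 ± 0.14 under ICA (adjusted p over all probe sets 0.0196), beside 0.49 ± 0.10 for the one used. That of Col1a2 differed by 0.74 ± 0.20 (0.0850), beside 0.42 ± 0.07, and it was not called. Col5a1 gave 0.15 ± 0.10 and 0.23 ± 0.09. Each second probe set had the sign of the first in T cell mice against marrow-only mice under ICA. In the averaged contrast the second ones of Col1a2 (0.38 ± 0.15, adjusted p over all probe sets 0.211) and Col6a1 (0.38 ± 0.11, 0.0584) were not called. Under vehicle the second ones gave 0.025 ± 0.23 for Col1a2 and -0.037 ± 0.12 for Col5a1, beside 0.20 ± 0.08 and 0.0019 ± 0.11. In ICA against vehicle without T cells the second ones of Col1a2 (-0.14 ± 0.22) and Col5a1 (-0.22 ± 0.11) were negative. Those used gave 0.053 ± 0.073 and 0.024 ± 0.10. In ICA against vehicle with T cells the probe sets of Col5a1 differed in sign, -0.040 ± 0.11 for the second and 0.25 ± 0.10 for the one used. There the second ones of Col1a2 and Col6a1 gave 0.58 ± 0.22 and 0.32 ± 0.15, beside 0.28 ± 0.07 and 0.11 ± 0.11. For the interaction they gave 0.72 ± 0.31 and 0.60 ± 0.21, beside 0.22 ± 0.10 and 0.30 ± 0.15. None of these values passed at an adjusted p under 0.05 over all probe sets.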

How the data were processed

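Ileum RNA of 18 mice was measured on Affymetrix whole-transcript arrays, 1 array per mouse. The deposited values were taken as log2 values normalised by RMA, which the submitters' processing notes name with Partek and GenomeStudio and with no versions; for filters, versions and the base of the logarithm the sources used here give nothing. RMA can compress differences of dim probe sets. No further normalization was applied.

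Of 41345 probe sets, the platform annotation gave 23521 a single symbol, 1814 several and 16010 none. One probe set per gene was kept, that with the highest mean, which gave 22180 genes. A linear model with 4 group means was fitted to all 18 arrays with limma 3.58.1 in R 4.3.3, with a trend of the prior variance on the mean (14 residual degrees of freedom, 6.1 from the prior), two-sided tests and Benjamini-Hochberg adjustment over all genes. The number of arrays limits the precision. The 6 comparisons share groups: both ICA comparisons and both T cell comparisons use the same mice, and the interaction and the averaged contrast reuse them. The fit was tested on simulated data of this design.

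The members and lists were chosen with earlier results of these data known, so lists are described by counts and medians and not tested. Named were all called collagens, up to 3 per class with the smallest p in each comparison of arms, 9 collagens of wide use, and, of 7 related lists, the called members with a few of those with the lowest p. Of the listed genes, Plod3, Fkbp10, Adamts2, Loxl2, Itga10 and Fbn1, the markers C3, Ly6a, Cd247, Lck and Trac, and some others were not analysed here.

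Alternatives were a further quantile normalization, centring, 2 filters on low values, the mean of a gene's probe sets, only the groups compared, a replicate block, no prior trend, array weights, marker covariates, 3 arrays left out and each mouse left out. Motifs and figures were made in Python 3.11.15 with matplotlib 3.10.9.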

Additional observations from a re-analysis of the deposited data

Results flagged for a closer look

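In 9 of 176 gene and group combinations (5.11%) 1 mouse stood apart from the others of its group by Dixon's test at the 95% level, where chance gives about 5%. Among T cell mice given vehicle, Col5a2 read 7.52 in mouse 1 (others 7.33 to 7.35), Col6a3 8.36 in mouse 4 (others 8.72 to 8.78), Col9a2 7.78 in mouse 4 (others 7.47 to 7.52) and Col9a3 5.99 in mouse 3 (others 6.41 to 6.46). Among marrow-only mice given vehicle, Col4a3 read 5.84 in mouse 3 (others 6.14 to 6.16), Col25a1 6.04 in the same mouse (others 6.38 to 6.41) and Col8a2 5.95 in mouse 4 (others 6.22 to 6.26). Among marrow-only mice given ICA, Col2a1 read 6.75 in mouse 2 (others 6.53 to 6.58) and Col19a1 5.08 in mouse 5 (others 5.32 to 5.41). None of the 9 belongs to a collagen called in a comparison.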

How the results depend on the processing

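No alternative called a collagen under vehicle, in either comparison of ICA with vehicle, or in the interaction. Under ICA the count of 6 called collagens became 3 with only the groups compared, 0 with the smooth muscle covariate, 2 with the fibroblast covariate (Col1a2 and Col12a1; chosen after the data were seen) and 8 with array weights or without the 3 arrays; leaving out a mouse gave 3 to 7. The averaged T cell contrast, also at 6, gave 0 with the smooth muscle covariate, 1 with the fibroblast covariate (Col12a1) and 4 to 8 without a mouse, and Col6a2 turned to -0.063 there with the smooth muscle covariate. The counts of all genes called in these fits are not given, apart from that of the smooth muscle covariate under ICA above. A change in the collagens therefore cannot be told apart from a change over the whole array. Over the 27 collagens above the median probe set, the median difference was 0.21 under ICA, 0.034 under vehicle and 0.12 in the averaged contrast. For ICA against vehicle it was 0.16 with T cells and -0.0052 without, and in the interaction 0.13. Over the 44 collagens the smooth muscle covariate gave a median of -0.046 under vehicle. Without a mouse the medians ran from 0.047 to 0.095 under ICA, 0.017 to 0.045 under vehicle, 0.036 to 0.059 averaged, 0.028 to 0.078 for ICA with T cells, -0.050 to 0.0068 without T cells and 0.056 to 0.12 in the interaction. Mice with the same number showed no common deviation, since the deviations of 25 same-number pairs had a median correlation of 0.0019 (-0.14 to 0.20). For pairs with different numbers the median was -0.0043 (-0.28 to 0.36). A pairing by something other than the number was not tested. Mouse number as a replicate block left 6 collagens under ICA and 5 in the averaged contrast, without Col8a1, and changed no other collagen's call. The fit of only the groups compared was not run for the averaged contrast and the interaction, which use all groups. The cause of these changes was not tested. Of 44 collagens, 17 lay at or under the median probe set, where a low signal cannot be told apart from background, which was not estimated here.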
